A study of Schizosaccharomyces pombe with 6 samples.

Results

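The genes described here encode the cytoplasmic ribosomal proteins of the fission yeast Schizosaccharomyces pombe. They were chosen by name: a deposited transcription unit was taken when one of its genes has, in the RefSeq annotation, a symbol that starts with rpl, rps or rpp followed by a digit. That gave 141 of 5484 units. Of these, 138 hold a gene annotated as a ribosomal protein and are described below, 55 of the small subunit, 76 of the large subunit and 7 of the P-stalk. The other 3 units (rpp1, rpp21 and rpp40) hold subunits of RNase P or RNase MRP, which share only the first letters of the name, and were kept apart. rpl701, annotated both as an RNase MRP subunit and as like ribosomal protein L7, was kept among the 138. The 138 genes encode 77 proteins, of which 21 have a single gene, 51 a pair of genes and 5 have 3 genes.

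Newly made RNA was sequenced before and during depletion of Spt5, an elongation factor of RNA polymerase II. All libraries came from the h- strain ASP167, in which the thiamine-repressible promoter Pnmt81 drives spt5+ tagged with V5 and the degron IAA17. At ade6 the strain carries OsTIR1 and AtTIR1, plant auxin receptors fused to skp1 and driven by Padh15, and it is ura4-D18. Cultures grown from single colonies in minimal medium (EMM) received thiamine and NAA, a synthetic auxin, at 0 h. At 0, 2.5 and 4.5 h the cells were given 4-thiouracil (5 mM, 10 min), and the labelled RNA was purified. There were 2 libraries, labelled biological replicates, at each time. Nothing in the labels says more about how the replicates were separated, so each p-value measures the spread between these libraries. As no untreated time course is part of the series, loss of Spt5, either added compound and the hours in culture cannot be told apart. No spike-in was used, so a change is always relative to the rest of the labelled RNA.

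Each ribosome holds a copy of nearly every ribosomal protein, so a cell makes these proteins in matched amounts and in quantities that follow its growth. In fission yeast many of the genes carry a HomolD box, which takes the place of a TATA element just upstream of the transcript start, and some carry a HomolE box next to it. Most of the proteins are encoded by more than 1 gene; such copies are called paralogues here, and both usually make the same or nearly the same protein.

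The boxes were looked for as exact letters on both strands of the promoter, taken from 250 bases before to 50 bases after the RefSeq transcript start (ASM294v3). The HomolD letters CAGTCACA, or TGTGACTG where the box lies on the other strand, were present at 88 of 138 ribosomal protein genes (63.8%) and at 49 of 4985 other protein-coding genes (0.983%). The HomolE box, searched as a run of 10 fixed letters, was present at 41 (29.7%) against 23 others (0.461%). At ribosomal protein genes the first base of the HomolD box lay a median of 51 bases upstream of the start (interquartile range 57 to 47, 92 boxes), and 62 of the 92 boxes were on the gene's own strand. Boxes were counted for each gene, so a box in the promoters of 2 divergent genes counts for both. Both boxes were found at 23 of the genes and neither at 32. A missing match says only that these letters are not in the window.

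The windows below are shown for 5 proteins with a copy that differed by less than 1 log2 unit between the libraries of 0 h, described further on. The copies of rpl12 and rpl8 with that pattern share their units with other genes and are not shown. Each is 30 bases of RefSeq ASM294v3 sequence, 5′ to 3′ on the strand of the gene, with the HomolD box in capitals.
rps2201, chrI:1162696-1162725, minus strand: gttcgtagacaTGTGACTGctttttttgag
rps2202, chrI:1512422-1512451, minus strand: tagggtttttaTGTGACTGctcctgtagat
rpl3001, chrI:1974113-1974142, minus strand: agggtttgaagCAGTCACAttttaatttgt
rpl3002, chrI:5095916-5095945, minus strand: gtttggatttaTGTGACTGtttttcttgga
rpl101, chrIII:612617-612646, minus strand: tatttcttaaaTGTGACTGtcattctactg
rpl102, chrII:3060481-3060510, plus strand: ctatatagaaaCAGTCACAaagatagtaga
rpl3401, chrI:4093825-4093854, minus strand: gagagtaaaaaCAGTCACAcacaacacaat
rps1402, chrII:1792293-1792322, plus strand: cgacacaaattTGTGACTGttcctttagtt
In the first 3 pairs both paralogues have the box, with its first base 48 to 57 bases upstream of the start. The rps1402 promoter has a second box at 85 bases, in the window tttcccatgagCAGTCACAaaagtttcgac (chrII:1792267-1792296, plus strand). Both boxes of rps1402 were also counted for its divergent neighbour rpl701. The one at 85 bases begins 10 bases past the rpl701 transcript start. The paralogues rpl3402 and rps1401 have no HomolD letters in their windows, and rps1401 has a HomolE box.

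The libraries held 11525663 to 35673601 counts assigned to units, and every one of the 138 units had counts in every library, the lowest being 100. Levels are given in CPM (a unit's counts relative to its library's total) after TMM scaling, which sets libraries to a common level through the bulk of units. The spt5 unit, which checks the labels, stood at 1045 and 721 CPM at 0 h, 121 and 108 at 2.5 h, and 98.2 and 92.3 at 4.5 h. How reads matching several places or the other strand were counted is not given in the sources used here. For the ribosomal protein genes named below, the share of 50-base windows that recur elsewhere is therefore given where it is large. The same was done for overlap with a unit on the other strand.

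The level of the ribosomal protein RNAs was set above all by which library of 0 h was looked at. They took 3.68% of all counts in replicate 1 of 0 h and 0.897% in replicate 2. In the treated libraries the share was 2.43% and 1.71% at 2.5 h and 2.49% and 2.29% at 4.5 h, between the values of 0 h. The median unit stood at 7.77 log2 CPM in replicate 1 of 0 h, 5.39 in replicate 2, 7.05 and 6.44 at 2.5 h, and 7.18 and 7.0 at 4.5 h. Over the same libraries the median of the other coding units stayed between 6.29 and 6.35. Per kilobase of exon, the median ribosomal protein unit ranked at the 94.2 percentile of coding units in replicate 1 of 0 h and at the 60.6 percentile in replicate 2, against 84.8 to 90.8 in the treated libraries.

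**Figure D1:**
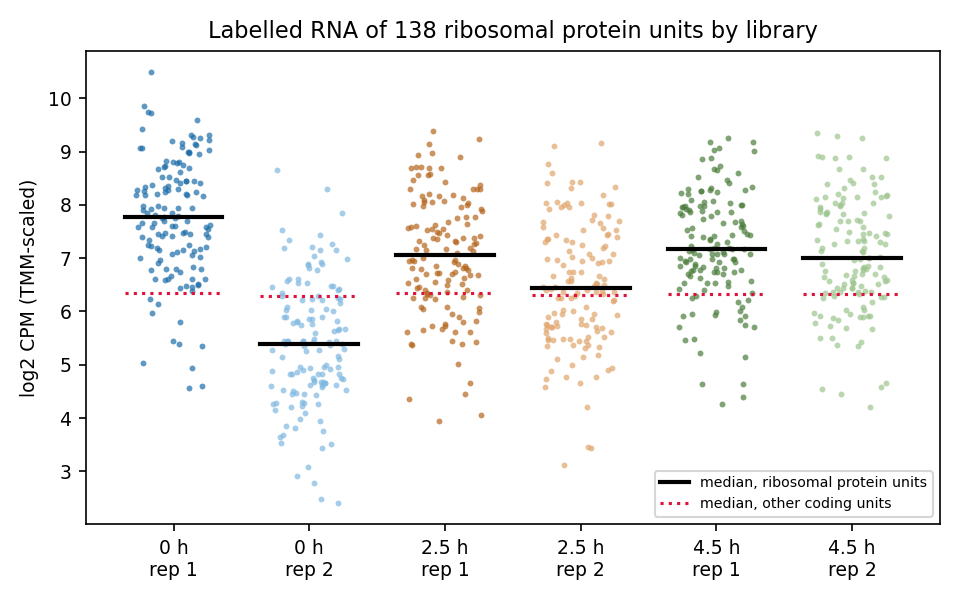
Level of the 138 ribosomal protein units in each library, in log2 CPM after TMM scaling: points are units, black bars their median, dotted red bars the median of the other coding units. The whole set is shifted between the replicates of 0 h (medians 7.77 and 5.39), with the treated libraries in between, while the other coding units keep their median.

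Replicate 1 of 0 h exceeded replicate 2 by a median of 2.44 log2 units over the 138 units (interquartile range 2.14 to 2.72, lowest -0.00, highest 3.99). The difference was at least 1 log2 unit, that is 2-fold, at 131 of 138 (94.9%), against 10.8% of all tested units and 8.62% of other coding units. Ribosomal protein units made up 131 of the 562 units (23.3%) with such a difference. It was smaller within the treated times. At 2.5 h the median was 0.53 and 14 units (10.1%) reached 1 log2 unit, with 1.09% of all units; at 4.5 h the median was 0.17 and 0 reached it, with 0.749% of all units. In 104 of 138 units (75.4%) all 4 treated libraries lay between the libraries of 0 h, against 11.6% of all units, and replicate 1 was the higher library of 0 h in all 104 (9.18% of all units). All 4 lay above both libraries of 0 h for 4 units (rpl1201, rpl22, rps1401 and rps2202; 20.6% of all units) and below both for 0 (14.0% of all units).

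The order of the genes was partly kept across this shift. Over the 138 units the level per kilobase in replicate 1 of 0 h had a Spearman rho of 0.81 with replicate 2, while the treated libraries had 0.91 to 0.97 among themselves; the libraries share the genes' lengths and base composition. By mean level per kilobase the highest units were rps2, whose protein lines the mRNA entry channel of the small subunit, rpl4102, for one of the shortest proteins of the cell, and rps7, for another small subunit protein. rps2 had 1438 and 313 CPM at 0 h, 603 and 548 at 2.5 h, and 517 and 629 at 4.5 h. rps7 had 922 and 153, 666 and 434, and 578 and 654 CPM. In both genes the treated libraries lay between those of 0 h. A unit on the other strand overlaps 51.5% of rps2. The lowest units per kilobase were rpl1603, rpp203 and rpl3801, each the lesser copy of a duplicated gene. The length used is the exonic length of the whole unit.

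The authors' deposited table holds kinetic estimates per unit, including a half-life; it states no time unit and not from which libraries the estimates came, so they are used as ranks. In the authors' deposited table the ribosomal protein units had a median half-life percentile of 96.8 among coding units (interquartile range 92.2 to 98.8), that is among the longest. The median percentile of their synthesis time was 12.4. Among 3954 other coding units of a single gene the difference between the libraries of 0 h rose with the half-life rank (Spearman rho 0.68), less so at 2.5 h (0.34) and hardly at 4.5 h (0.03). Ribosomal protein units also had larger differences within the top bin of half-life rank, in which ranks were not matched. Above the 90 percentile the 333 other coding units had a median difference of 1.07 and 54.1% reached 1 log2 unit, whereas the 110 ribosomal protein units had 2.49 and all 110 reached it. The part of RNA stability in the difference was not tested.

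**Figure D2:**
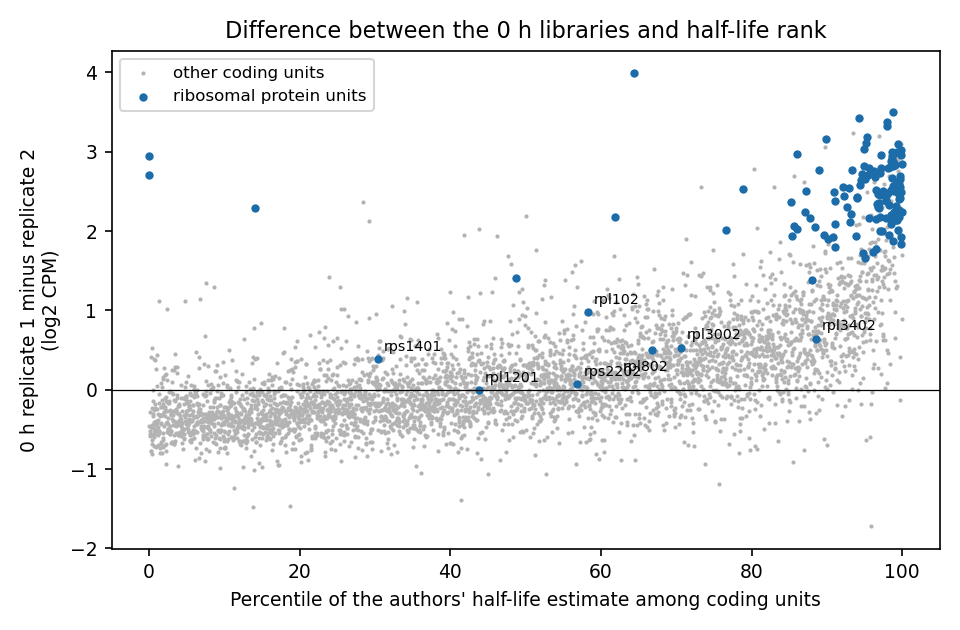
Replicate 1 minus replicate 2 of 0 h (log2 CPM) against the percentile of the authors' half-life estimate among coding units, with 138 ribosomal protein units in blue and other coding units in grey. Grey points climb to the right and most blue points lie above them at the right edge; the 7 blue points under 1 log2 unit are named.

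The 7 units that differed by less than 1 log2 unit at 0 h were each a copy of a duplicated gene, as are 117 of the 138. Another copy of the same protein differed by more in each case, as did 131 of the 138 units. They were rpl1201 (-0.00), rps2202 (0.07), rps1401 (0.38), rpl802 (0.50), rpl3002 (0.53), rpl3402 (0.64) and rpl102 (0.98); rpl802, rpl3402 and rpl102 were named here after their values were seen. The corresponding values of the other copies were 2.44 for rpl1202, 2.82 for rps2201, 3.0 for rps1402, 2.98 and 2.43 for rpl801 and rpl803, 2.49 for rpl3001, 3.04 for rpl3401 and 2.90 for rpl101. Some of these values cover more than the gene: rpl1201 shares its unit with sfc4 and rpl802 with osh2 and ceg1, so their counts include those genes. The coding sequences of rpl1201 and rpl1202 are identical at 99.6% of aligned bases. Of the windows of their units 10.6% and 59.3% recur, so their split depends on how such reads were counted. For rps1401 and rps1402 the shares are 9.90% and 9.42%. The unit of rps1401 is overlapped over 99.3% of its length by a unit on the other strand. The others (rps2202, rpl3002, rpl3402 and rpl102) are single-gene units with no such overlap and at most 0.409% recurring windows. In the authors' table rps1401, rps2202, rpl102 and rpl3002 had half-life percentiles of 30.3, 56.9, 58.3 and 70.6, and rpl3402 of 88.6, each lower than that of its paralogue (98.6, 98.8, 98.7, 91.0 and 94.9).

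**Figure D3:**
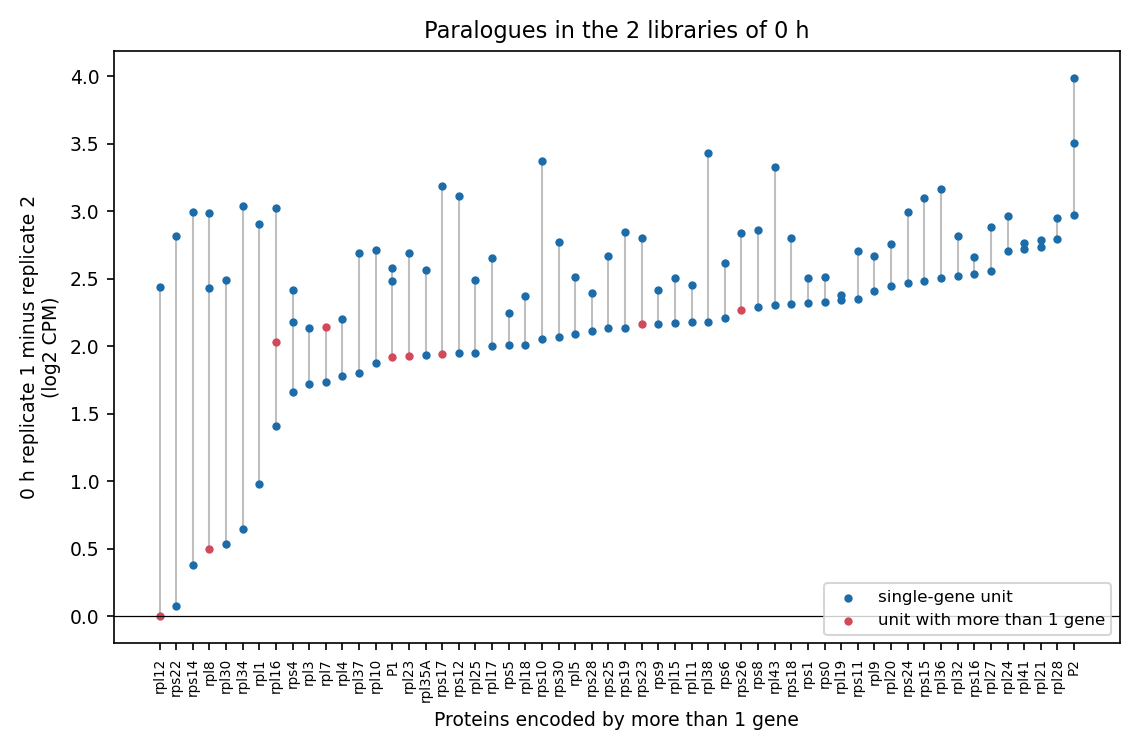
Replicate 1 minus replicate 2 of 0 h (log2 CPM) for the 56 proteins encoded by more than 1 gene; each point is a gene, lines join copies of the same protein, and red points are units that hold further genes. At the left, 7 proteins have a copy under 1 log2 unit while their other copies lie above 2.4.

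rps22 showed the contrast most plainly. Its protein sits in the body of the small subunit. rps2201 had 417 and 59.2 CPM at 0 h, 288 and 173 at 2.5 h, and 225 and 229 at 4.5 h. rps2202 had 97.2 and 92.4 CPM at 0 h, 141 and 186 at 2.5 h, and 233 and 227 at 4.5 h. So rps2202 was alike in the libraries of 0 h and higher in each treated library, while rps2201 had its highest and its lowest value at 0 h. In edgeR's quasi-likelihood test rps2202 rose by 0.79 log2 units at 2.5 h (SE 0.17, adjusted p = 0.0275) and by 1.28 at 4.5 h (SE 0.17, adjusted p = 0.00888). The close libraries of 0 h, for which rps2202 was picked out, also keep this SE small. The unit of rps2602, with a difference of 2.26 at 0 h, had an SE of 0.71 at both times.

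rps14, whose protein lies on the platform of the small subunit, behaved alike. rps1401 had 88.7 and 68.0 CPM at 0 h, 145 and 163 at 2.5 h, and 172 and 176 at 4.5 h. rps1402 had 215 and 26.9 CPM at 0 h, 111 and 76.6 at 2.5 h, and 107 and 91.4 at 4.5 h. Each treated library of rps1401 exceeded both of 0 h, and those of rps1402 lay between them. edgeR gave rps1401 a log2 fold change of 0.98 at 2.5 h (SE 0.17, adjusted p = 0.0156) and 1.15 at 4.5 h (SE 0.17, adjusted p = 0.0114). As the strand setting is not known, its counts cannot be told apart from those of the overlapping unit.

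rpl30 differed in timing. In budding yeast the protein L30 binds its own transcript and blocks its splicing. rpl3002 had 62.5 and 43.2 CPM at 0 h, 63.4 and 43.3 at 2.5 h, and 163 and 104 at 4.5 h. rpl3001 had 175 and 31.1, 97.7 and 61.5, and 151 and 113 CPM. Only at 4.5 h did both libraries of rpl3002 exceed all others. edgeR placed rpl3002 at 1.34 log2 units above 0 h at 4.5 h (SE 0.32, adjusted p = 0.039) and at 1.32 above 2.5 h (SE 0.32, adjusted p = 0.0542), which misses the threshold of 0.05.

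Tested against both libraries of 0 h together, few ribosomal protein units passed. At 2.5 h 2 units rose (rps1401 and rps2202) and 0 fell, with 12.3% of all units higher and 5.11% lower. At 4.5 h 3 rose (rpl3002, rps1401 and rps2202) and 0 fell, with 10.1% higher and 7.8% lower. The median log2 fold change over the 138 units was -0.25 at 2.5 h and 0.03 at 4.5 h, and over all units 0.01 and 0.02. Leaving out any 1 of the 4 treated libraries left 0 called at 2.5 h. In these fits few of all units passed either: 3.48% and 0.019% without replicate 1 and 2 of 2.5 h, and 7.04% and 7.23% without replicate 1 and 2 of 4.5 h. There rps1401 kept differences of 0.89 to 1.05 and rps2202 of 0.57 to 0.96 log2 units. Leaving out either library of 4.5 h left 0 called at 4.5 h, with 2.04% and 0.907% of all units. There rps1401 kept 1.14 to 1.16, rps2202 1.25 to 1.29 and rpl3002 0.98 to 1.62. The call of rpl3002 was also lost without either library of 2.5 h (edgeR adjusted p = 0.0743 and 0.0744). Of falls, the count at an unadjusted p under 0.05 was also 0 in edgeR at both times, and DESeq2 called 0 lower at both times after adjustment (8.81% and 12.1% of all units lower). These comparisons contain the spread at 0 h, so a miss does not show that a gene did not change. All the called units were among those that differed by less than 1 log2 unit between the libraries of 0 h. A call therefore also reflects that small spread and does not by itself set a unit apart from its paralogue.

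Against each library of 0 h alone the direction turned over, so no direction against 0 h can be given for the set. In these fits 0 h is an arm of 1 library: the spread comes from the pairs of 2.5 and 4.5 h alone, and the lone library is assumed to vary like them, which the libraries of 0 h did not. The calls below therefore compare with that library and not with 0 h as a condition. With replicate 2 as the only library of 0 h, 115 units rose and 0 fell at 2.5 h (median 1.34; 22.2% of all units higher, 19.8% lower), and 132 rose and 0 fell at 4.5 h (median 1.66; 20.9% and 20.6%). With replicate 1 instead, 2 rose and 92 fell at 2.5 h (median -0.997; 20.6% and 20.4%), and 5 rose and 68 fell at 4.5 h (median -0.75; 19.8% and 20.6%). The 5 that rose at 4.5 h even against replicate 1 were rpl22, rpl26, rpl3002, rps1401 and rps2202; rpl22 and rpl26 were named after their values were seen. rpl26 shares its unit with another gene, and a unit on the other strand overlaps 53.4% of it. rpl22, a large subunit gene without a paralogue, had 107 and 41.2 CPM at 0 h, 152 and 131 at 2.5 h, and 233 and 208 at 4.5 h, so that each treated library exceeded both of 0 h. Against both libraries of 0 h together it stood 1.57 log2 units higher at 4.5 h by edgeR (SE 0.45, adjusted p = 0.0708), which misses the threshold.

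Both libraries of 4.5 h exceeded both of 0 h at 20 units (14.5%; 33.7% of all units), of which 6 were single-copy genes (21 of the 138 are) and 12 had under 600 nucleotides of exon (50 of the 138). The reverse occurred at 0 units (27.9% of all units). At 2.5 h the counts were 4 above (31.7%) and 0 below (25.0%). The 21 single-copy genes had higher medians against 0 h than the 117 duplicated ones: 0.22 against -0.28 at 2.5 h and 0.42 against -0.06 at 4.5 h. The same order held at 4.5 h against replicate 1 alone (-0.35 and -0.78) and replicate 2 alone (2.09 and 1.62). Both fits use the same libraries of 4.5 h, so they are not separate checks. Between 2.5 and 4.5 h the order was reversed, with medians of 0.26 for the single-copy and 0.32 for the duplicated genes. Some single-copy genes, such as rpl26, lie in units with more than 1 gene. Such units had a median of 0.19 at 4.5 h against 0 h, and single-gene units 0.02. Single-copy genes also had a longer median exonic length than duplicated ones (831 against 702 nucleotides). Their median half-life percentile was lower (94.4 against 97.0). The contrast of single-copy and duplicated genes was not tested.

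Between 2.5 and 4.5 h, where the replicates were closer, the set stood a little higher. Over the 138 units the median log2 fold change was 0.32, against -0.01 over all units, and 121 were above 0. Both libraries of 4.5 h exceeded both of 2.5 h at 63 units (45.7%; 36.3% of all units), and the reverse held at 1, rpl1603 (37.4% of all units). In the fit over all 6 libraries edgeR called 0 higher and 0 lower, with 3 higher at an unadjusted p under 0.05 and 1 higher by DESeq2 (6.45% of all units); 3.34% of all units were higher and 6.91% lower in edgeR. Fitted on the 4 treated libraries alone, without the spread of 0 h, 35 units were higher and 0 lower, with 18.3% of all units higher and 20.5% lower. The 35 comprised 14 of the small subunit, 21 of the large subunit and 0 of the P-stalk. Leaving out any 1 treated library from the fit over all libraries left 0 ribosomal protein units called, but also 0 of all units (0.0% in each of the 4 fits), so that this count says nothing about the set. The median ran from 0.09 without replicate 2 of 2.5 h to 0.63 without replicate 1 of 2.5 h.

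The late difference was larger in shorter units. In the 123 single-gene units it had a Spearman rho of -0.38 with exonic length. Divided into 3 bins of 41 units, the shortest (277 to 572 nucleotides) had a median of 0.50, the middle ones 0.30 and the longest (768 to 2205 nucleotides) 0.18. Other coding units of a single gene in the same length ranges had medians of 0.38 (81 units), 0.29 (173 units) and 0.06 (2452 units of 767 to 2204 nucleotides). The replicates also differed by length: in the shortest bin replicate 1 exceeded replicate 2 by a median of 0.68 at 2.5 h and 0.31 at 4.5 h, and in the longest by 0.37 and 0.04. The part of length-dependent recovery in the late difference was not tested.

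**Figure D4:**
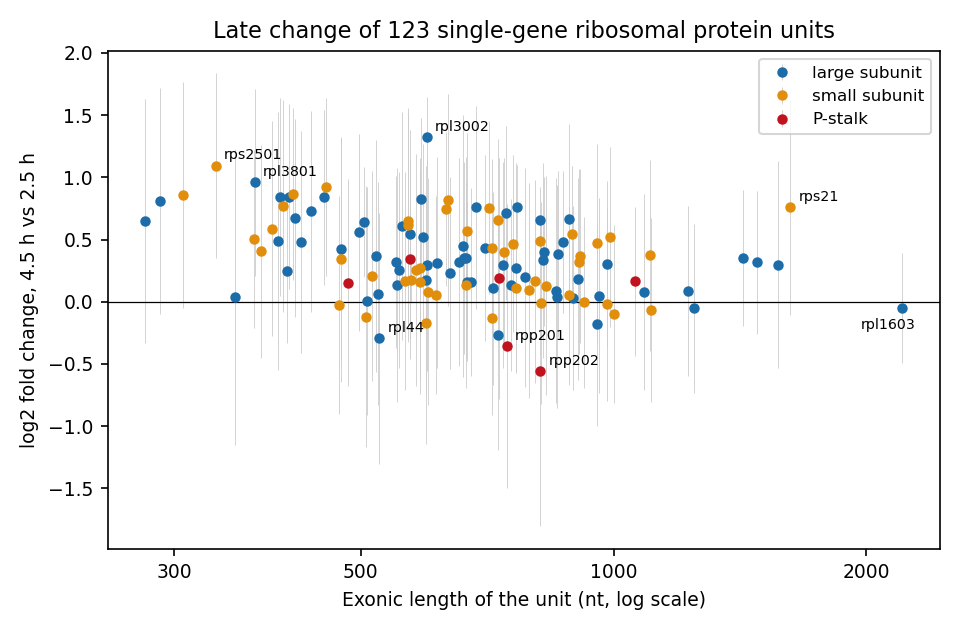
Log2 fold change of 4.5 h against 2.5 h from the fit over all 6 libraries (vertical axis, grey lines are 1 SE) against exonic length in nucleotides (log axis) for 123 single-gene ribosomal protein units, coloured by subunit. Values fall from a median of 0.50 in the shortest bin to 0.18 in the longest, and the lowest are rpp202, rpp201 and rpl44.

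Besides rpl3002, the highest late values were those of rps2501, rpl3801 and rps3001. rps2501, for a protein in the head of the small subunit, had 32.8 and 7.38 CPM at 0 h, 16.5 and 10.8 at 2.5 h, and 35.2 and 23.3 at 4.5 h. rps3001, whose protein is made in animals as a fusion to a ubiquitin-like protein, had 91.6 and 21.8, 75 and 44.9, and 135 and 92.9 CPM. In both genes the libraries of 4.5 h lay above those of 2.5 h. Their late values were 1.09 (SE 0.74, edgeR adjusted p = 0.382) and 0.92 (SE 0.71, edgeR adjusted p = 0.44). The lowest late values were those of rpp202, rpp201, rpl44 and rpl1602, and leaving out replicate 1 of 2.5 h turned each of them positive.

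The P-stalk of the large subunit recruits the elongation factors. It consists of P0, the protein of rpp0 that anchors it, and of dimers of P1 (rpp101, rpp102 and rpp103) and P2 (rpp201, rpp202 and rpp203). rpp0 had 688 and 184 CPM at 0 h, 353 and 318 at 2.5 h, and 385 and 367 at 4.5 h. rpp201 had 323 and 28.4, 287 and 91.4, and 139 and 157 CPM. rpp202 had 252 and 15.8, 125 and 40.9, and 60.9 and 51.8 CPM. A unit on the other strand overlaps 40.3% of rpp202. The replicates of 2.5 h were as far apart as 3-fold in both P2 genes, and both late means were below those of 2.5 h. P2 genes had the largest differences between the libraries of 0 h, 3.99 for rpp202 and 3.50 for rpp201; rpl3802 came next with 3.43.

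rpp203, the weakest of the P2 genes, had 43.7 and 5.47 CPM at 0 h, 21.8 and 10.8 at 2.5 h, and 19 and 18.4 at 4.5 h. The P1 genes rpp101 and rpp103 had 75.1 and 12.5, and 111 and 19.7 CPM at 0 h. At 4.5 h they had 52.2 and 45.1, and 37.3 and 54.7. rpp102, whose unit holds another gene too, went from 192 and 50.6 CPM at 0 h to 116 and 115 at 4.5 h. No P-stalk unit passed the test in any of the 3 comparisons by edgeR, and the median late value of the 7 was 0.16 against 0.32 for the small and 0.33 for the large subunit.

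Ratios between paralogues are taken within a library, so a shift common to the set cancels. Over 66 pairs of paralogues (54 of them between single-gene units) the mean log2 ratio of levels per kilobase had a median size of 0.92. The ratio reached 2-fold in 30 pairs and 4-fold in 10. In 46 pairs the same copy was higher in all 6 libraries. Coding sequences of the pairs were identical at 66.1 to 99.6% of aligned bases. The ratio differed by at least 1 log2 unit between the libraries of 0 h in 15 pairs.

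The widest ratio was that of rpl1602 over rpl1603, for a large subunit protein: 5.07 and 3.45 at 0 h, 4.10 and 3.57 at 2.5 h, and 3.51 and 3.76 at 4.5 h. A unit on the other strand overlaps 99.6% of rpl1603. Its unit has 2205 exonic nucleotides against 729 for rpl1602, though both coding sequences have 594. This difference in length is part of the ratio per kilobase. rpl3401 exceeded rpl3402 by 4.58 and 2.19, 4.34 and 3.57, and 4.05 and 3.40 log2 units. The copies of rpl10, whose protein joins the large subunit late in its assembly and lies near the tRNAs, differed by 2.34 and 3.18 at 0 h, 3.87 and 3.61 at 2.5 h, and 3.80 and 3.91 at 4.5 h, with rpl1001 the higher. In each of these pairs the same copy led in every library. The coding sequences of rpl1001 and rpl1002 are identical at 97.9% of bases and 37.8% and 19.4% of their windows recur, so their split depends on how such reads were counted. Their units also differ in exonic length, with 826 and 1568 nucleotides.

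In other pairs the ratio differed between the libraries of 0 h, and in several, rps14 among them, the leading copy changed. The ratio of rps1401 over rps1402 was -1.21 in replicate 1 of 0 h and 1.40 in replicate 2, and 0.46 to 1.16 in the treated libraries. A unit on the other strand overlaps 99.3% of rps1401. For rps2201 over rps2202 the ratio was 2.90 and 0.15 at 0 h, 1.82 and 0.69 at 2.5 h, and 0.74 and 0.81 at 4.5 h. For rpl101 over rpl102, whose protein forms the stalk by which tRNAs leave, it was 3.29 and 1.36, 2.83 and 2.56, and 2.10 and 2.20. In these last pairs the same copy led in every library. In all 3 pairs the values of the treated libraries lay between those of 0 h.

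In 21 of 66 pairs (31.8%; 35.2% of the 54 between single-gene units) the ratio in all 4 treated libraries lay on the same side of both libraries of 0 h. For levels, all 4 treated libraries lay above both of 0 h at 20.6% of all units and below both at 14.0%. No share over pairs of other genes was computed, so the count is not read as a result about paralogues. Proteins with 3 genes give several pairs that share genes. This is a count over pairs with no test, and the examples were named after their values were seen. The log2 ratio of rps2501 over rps2502 was -1.82 and -1.29 at 0 h, -3.12 and -3.17 at 2.5 h, and -2.82 and -2.81 at 4.5 h, so that rps2502 led by more in the treated libraries. rps1601 led rps1602 by 1.14 and 1.01 at 0 h, 1.97 and 2.01 at 2.5 h, and 1.58 and 1.73 at 4.5 h; a unit on the other strand overlaps 35.8% of rps1602. The copies of rps1 were near parity at 0 h (-0.05 and 0.14 for rps101 over rps102), and rps102 led afterwards, with ratios of -0.85 and -0.98 at 2.5 h and -0.65 and -0.89 at 4.5 h. The copies of rpl41 were also near parity at 0 h, and rpl4102 led in the treated libraries, with ratios of rpl4101 over rpl4102 from -1.48 to -0.78; 65.5% of rpl4101 is overlapped on the other strand. In these 4 pairs the libraries of 0 h were closer to each other than to any treated library, unlike the levels of the same genes.

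From 2.5 to 4.5 h the ratios moved less, by a median size of 0.23 and at most 0.72. The largest move was in rpl38, where rpl3801 over rpl3802 was -2.84 and -1.73 at 2.5 h and -1.83 and -1.30 at 4.5 h, with overlap between the times. The ratio of rps1501 over rps1502, genes of a protein in the head of the small subunit, was 0.05 and 0.53 at 2.5 h and 0.93 and 1.02 at 4.5 h, without overlap. rpl1601 over rpl1602 moved by 0.67 (rpl1601 shares its unit with another gene) and rpp202 over rpp203 by -0.63. With 2 libraries a time an exact permutation test of a pair cannot go below p = 0.33, so none was made.

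**Figure D5:**
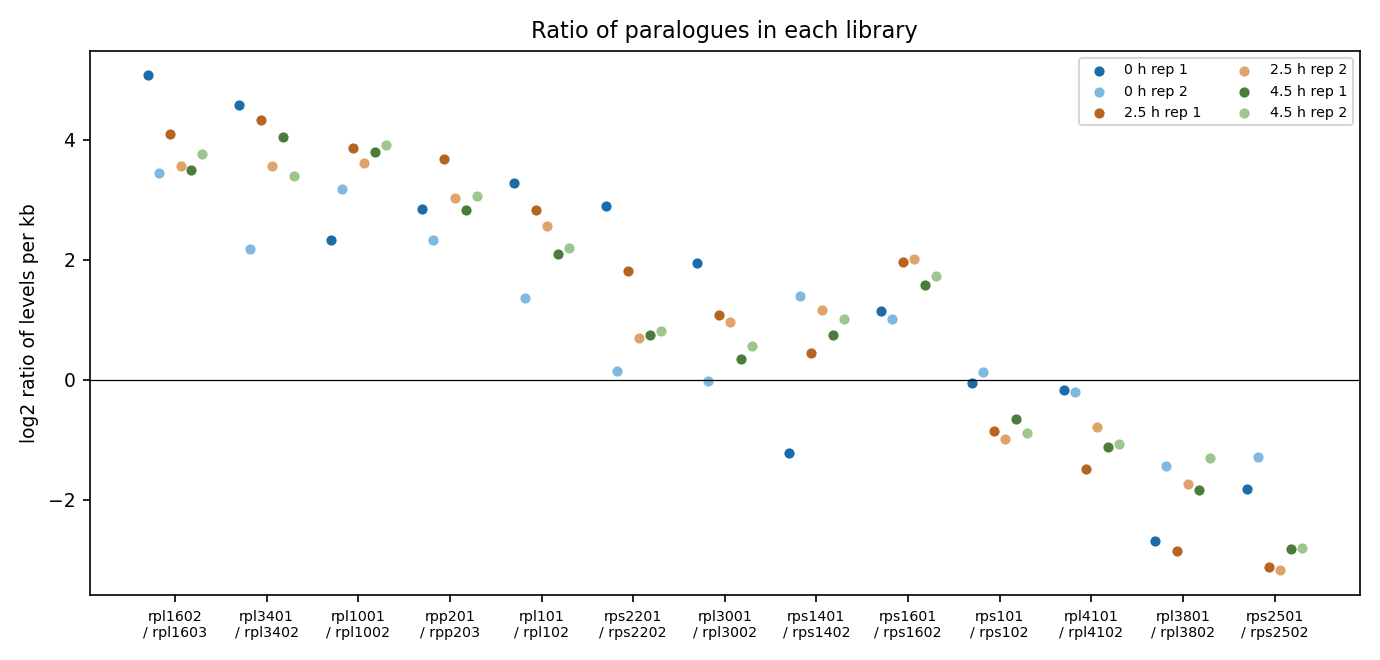
Log2 ratio of levels per kilobase for 13 pairs of paralogues, a point for each library. The libraries of 0 h (blue) lie apart for rps22, rpl30 and rps14, and together on one side of the treated libraries for rps16, rps1, rpl41 and rps25.

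Lists of genes around the ribosome had different medians at 0 h. The 5 genes for ubiquitin fused to ribosomal proteins and for the ribosome-bound RACK1 (cpc2) had a median difference of 2.37 log2 units between the libraries of 0 h; ubi2 among them lies in the unit of rps2602, which is 1 of the 138. It was 1.97 for 8 genes of translation elongation, 1.42 for 5 genes of nascent chain chaperones, 0.81 for 15 of translation initiation and -0.19 for 10 known or proposed regulators of ribosomal protein genes. Over all tested units it was 0.01. The lists overlapped, with genes from -0.06 to 1.55 for initiation and from 1.32 to 2.91 for elongation, and the differences between lists were not tested.

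Of these lists, the fusions with RACK1, the elongation and the chaperone genes had 0 called by edgeR in each comparison over all 6 libraries. Among the 15 initiation genes tif212, for a subunit of the factor that brings the initiator tRNA, was lower at 2.5 h (-1.17, SE 0.29, edgeR adjusted p = 0.041). tif5, for the factor that triggers its GTP hydrolysis, was higher at 4.5 h than at 2.5 h (0.73, SE 0.14, edgeR adjusted p = 0.039). Of 24 initiation symbols listed 15 had a unit under that name.

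The 10 regulators had 6 calls in 4 genes over the 3 comparisons. Of all units 17.4% were called at 2.5 h, 17.9% at 4.5 h and 10.3% between 2.5 and 4.5 h, so the number of calls is near that background and is no result about the list. fhl1, for a forkhead factor that binds ribosomal protein promoters in budding yeast, had 148 and 210 CPM at 0 h, 324 and 316 at 2.5 h, and 367 and 406 at 4.5 h. It rose by 0.84 log2 units at 2.5 h (SE 0.20, edgeR adjusted p = 0.037) and 1.11 at 4.5 h (SE 0.20, edgeR adjusted p = 0.018). psk1, for a kinase of ribosomal protein S6, rose by 1.01 at 4.5 h (SE 0.15, edgeR adjusted p = 0.011). sck2, for a related kinase, was lower at 2.5 h (-0.58, SE 0.14, edgeR adjusted p = 0.035) and higher at 4.5 h than at 2.5 h (0.59, SE 0.14, edgeR adjusted p = 0.047). rrn7, for a TFIIB-like factor that binds the HomolD box in fission yeast, was lower at 4.5 h than at 2.5 h (-1.07, SE 0.19, edgeR adjusted p = 0.033). Without either library of 0 h all these calls of regulators and initiation genes held in edgeR, with fhl1 at 2.5 h down to 0.50 log2 units without replicate 1. All were lost when 1 library of a treated time in the comparison was left out, with edgeR adjusted p-values from 0.0862 to 0.311 and no change of direction. Between 2.5 and 4.5 h no unit of the whole table passed in those fits, so the loss there (tif5, sck2 and rrn7) says nothing about these genes. The calls of fhl1 at both times, and of tif212 and sck2 at 2.5 h, were also lost when 1 library of the other treated time was left out (edgeR adjusted p from 0.0636 to 0.124), and psk1 at 4.5 h kept its call there. Against 0 h, too, few of all units passed without 1 library of the compared treated time, as given above. Those losses therefore say little about fhl1, psk1, sck2 and tif212. All 10 regulators, with or without calls, differed by under 1 log2 unit between the libraries of 0 h (from -0.56 to 0.13).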

How the data were processed

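Per the labels' protocols, RNA labelled with 4-thiouracil was purified and sequenced from Ovation Universal libraries (NuGen). The submitters' processing notes name STAR 2.3.0, SAMtools and ASM294v2. Which tool counted reads, with which strand setting, and what became of reads with several matches is not given in the sources used here. Each of the 6 deposited count files holds raw counts per unit. The authors' deposited table gives the coordinates and other annotation of each unit, and kinetic scores, used here as ranks. Sequence came from ASM294v3: 5017 of 5062 gene identifiers matched (99.1%), all overlapping, and 4902 of 4912 introns (99.8%) had splice site bases.

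Counts were tested with edgeR 4.0.16 in R 4.3.3 (filterByExpr, with 5208 units kept and among them all 138; TMM; robust quasi-likelihood fit over 6 libraries, with 3 residual degrees of freedom; Benjamini-Hochberg adjustment over all units; threshold 0.05). Log2 CPM used a prior count of 2. Alternatives included DESeq2 1.42.0; other tables used Python 3.11.15 and Biopython 1.88. The fit was tested on simulated data. A floor of 3 counts is 0.26 CPM in the shallowest library and covers counting error only.

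Genes and lists were chosen with earlier results of these data known. Named are spt5, the called units, the 4 highest and 4 lowest late changes, the 3 extremes at either end of level and of the 0 h difference, the P-stalk, the 4 pairs with the widest and the 4 with the most moved ratio, and called list genes; others are marked.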

Additional observations from a re-analysis of the deposited data

How the results depend on the processing

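The difference between the libraries of 0 h limits every comparison with 0 h. Leaving out 1 library at a time, units called against 0 h ran from 0 to 115 at 2.5 h (2 with all libraries) and from 0 to 132 at 4.5 h (3 with all), and between 2.5 and 4.5 h from 0 to 34 (0 with all). The medians ran from -0.997 to 1.34, from -0.75 to 1.66 and from 0.09 to 0.63. Fitted on the 2 times compared alone, 0 units were called at 2.5 h and 35 between 2.5 and 4.5 h. DESeq2 called 5 at 4.5 h and 1 between 2.5 and 4.5 h. With DESeq2 size factors edgeR called 3 and 1 in these comparisons. Restrictions added after seeing the data, to units with at most 5% recurring windows or at most 20% overlap on the other strand, each left 1 call at 2.5 h, with fewer units by construction. The late values of rpp202, rpp201, rpl44 and rpl1602 ran from -1.14 to 0.47, -0.95 to 0.70, -0.87 to 0.70 and -0.51 to 0.0313 with 1 library left out, positive without replicate 1 of 2.5 h. The calls of rps1401 and rps2202 at 2.5 h and of rpl3002 at 4.5 h were lost when any 1 treated library was left out, and those of rps1401 and rps2202 at 4.5 h when either library of 4.5 h was, each in the same direction. The labels number the replicates 1 and 2 at each time, and with only 2 numbers they were taken as names. Replicate differences correlated by 0.46 between 0 and 2.5 h, 0.21 between 0 and 4.5 h and 0.10 between 2.5 and 4.5 h. With the replicate number as a block, 2 units were called at 2.5 h, 5 at 4.5 h and 1 between 2.5 and 4.5 h, with medians of 0.05, 0.40 and 0.39, and the late values of rpp201 and rpl44 were 0.14 and 0.0903. The cause of these changes was not tested.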
